A study of Mus musculus with 36 samples.

Results

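Serpin genes encode serine protease inhibitors and their relatives, and their DNA methylation was measured in the livers of 24 mice. Of 21410 protein-coding autosomal genes in the annotation of the mm9 mouse genome, 59 had a symbol starting with Serpin. Each gene was taken from 5 kb upstream of its start to 1 kb past its end, and these loci held 9488 of the CpG dinucleotides listed in the deposited counts, out of 9769 CG dinucleotides in the mm9 sequence. The 59 genes were divided by symbol. A first class of 17 held the Serpina1 members (Serpina1a to Serpina1f), 10 Serpina3 members and Serpinc1, families whose founding members are made in liver. A second class of 6, called other plasma here, held Serpina6, Serpina10, Serpind1, Serpinf1, Serpinf2 and Serping1, whose products circulate in blood. The remaining genes were 4 of clade A (Serpina5, Serpina9, Serpina11, Serpina12), 26 of clade B, 3 of clade E, 1 of clade H and 2 of clade I. No RNA is analysed here, so the classes rest on names and known roles and not on expression in these livers.

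The mice belonged to 8 groups of 3. B6 (C57BL/6N) and C3 (C3H/HeN) are inbred strains, and their males and females served as sires and dams. B6C3F1 males and females had a B6 mother and a C3 father, and C3B6F1 males and females had a C3 mother and a B6 father. Parents were mated at week 10, litters were weaned at week 16, and parents and F1 animals alike were sacrificed at week 20. The dams were inbred and had borne and nursed litters, and the F1 females were hybrids and virgins. In females, generation, inbred or hybrid genotype and pregnancy therefore cannot be told apart, and the labels do not tie an F1 animal to its own parents. The samples were whole liver, in which a change in the share of a cell type and a change of methylation within cells cannot be told apart.

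Whole-genome bisulfite sequencing converts unmethylated cytosine and leaves methylated cytosine, so that each read reports the state of the CpGs it covers, and a methylation level is the percent of reads that were methylated. The 24 animals had 365740739 to 619888157 counts at autosomal CpGs, or 19.4 to 32.8 reads per CpG, and 75 to 77.5% of these reads were methylated. At the Serpin loci the mean depth ranged from 23.7 to 34.4 reads per CpG in the B6 parents and from 19.5 to 33.5 in the C3 parents. The liver label was checked at promoters, taken as 1000 bases before to 500 after the start. Hepatocyte genes were at 35.6% (Alb), 29.0% (Apoa1), 26.9% (Ttr), 21.5% (Fgb) and 56.1% (Tat) over the 24 animals, while 5 leukocyte and Kupffer cell genes lay between 76.2 and 85.6% and 3 endothelial genes between 65.9 and 78.2%.

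Serpins share a fold with an exposed reactive loop that a target protease cleaves, after which the inhibitor traps the protease in a covalent complex. Hepatocytes secrete the plasma members. Alpha-1 antitrypsin, encoded in mouse by several Serpina1 copies, restrains neutrophil elastase, the Serpina3 copies are related to antichymotrypsin, and Serpinc1 encodes antithrombin, the inhibitor of thrombin and factor Xa. Clade B members mostly stay inside cells, including leukocytes and keratinocytes. Methylation of CpGs at a promoter or enhancer is commonly low where the element is in use, and CpG-poor promoters show more variation between tissues than CpG islands.

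The sequences below carry the differences described in the following paragraphs, and are printed 5′ to 3′ from mm9, in lower case with each CpG in capitals. The first 5 are stretches of regions whose methylation differed between sexes, strains or generations, all written on the forward strand.
Serpina6, chr12:104884072-104884371, past the 3′ end of the gene: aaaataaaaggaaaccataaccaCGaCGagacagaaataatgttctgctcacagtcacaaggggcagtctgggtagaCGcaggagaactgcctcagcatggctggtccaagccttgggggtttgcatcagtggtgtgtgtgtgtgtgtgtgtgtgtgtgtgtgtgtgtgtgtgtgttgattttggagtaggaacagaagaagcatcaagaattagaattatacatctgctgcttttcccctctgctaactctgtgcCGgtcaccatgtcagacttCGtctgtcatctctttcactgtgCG
Serpina6, chr12:104883660-104883851, further past the same end: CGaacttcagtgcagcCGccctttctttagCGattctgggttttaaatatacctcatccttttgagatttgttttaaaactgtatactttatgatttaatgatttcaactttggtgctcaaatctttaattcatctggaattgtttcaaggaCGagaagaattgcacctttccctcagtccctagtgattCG
Serpina1e, chr12:105184096-105184395, past the 3′ end of the gene: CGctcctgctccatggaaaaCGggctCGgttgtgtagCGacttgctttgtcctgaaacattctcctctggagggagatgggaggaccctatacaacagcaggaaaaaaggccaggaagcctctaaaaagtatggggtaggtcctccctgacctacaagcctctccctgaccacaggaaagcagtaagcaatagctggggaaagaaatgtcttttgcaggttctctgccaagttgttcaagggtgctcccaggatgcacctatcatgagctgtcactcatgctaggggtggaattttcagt
Serpina3k, chr12:105582017-105582316, an exon-containing window: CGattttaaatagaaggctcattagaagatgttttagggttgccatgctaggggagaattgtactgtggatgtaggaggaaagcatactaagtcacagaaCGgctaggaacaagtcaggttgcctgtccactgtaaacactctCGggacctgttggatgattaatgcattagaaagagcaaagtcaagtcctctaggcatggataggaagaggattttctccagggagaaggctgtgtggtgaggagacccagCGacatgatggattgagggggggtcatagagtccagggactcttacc
Serpina12, chr12:105273344-105273455, an intron: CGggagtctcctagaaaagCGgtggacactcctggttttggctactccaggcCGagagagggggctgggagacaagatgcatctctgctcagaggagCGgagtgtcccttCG
The last 2 are the 250 bases upstream of the start in close relatives whose promoters differed widely in level, each on the strand of its gene (chr12:105143098-105143347 and chr12:105197186-105197435, both on the reverse strand).
Serpina1c, low: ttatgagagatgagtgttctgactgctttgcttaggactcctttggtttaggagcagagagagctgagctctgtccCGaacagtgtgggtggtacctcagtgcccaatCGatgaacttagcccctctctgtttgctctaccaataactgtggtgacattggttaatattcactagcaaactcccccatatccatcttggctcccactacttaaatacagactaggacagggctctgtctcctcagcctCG
Serpina1e, high: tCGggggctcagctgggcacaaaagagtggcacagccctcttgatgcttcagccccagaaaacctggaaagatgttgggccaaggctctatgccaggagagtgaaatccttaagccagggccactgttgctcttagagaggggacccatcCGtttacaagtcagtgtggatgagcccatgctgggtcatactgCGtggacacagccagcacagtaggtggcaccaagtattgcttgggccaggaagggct
These upstream stretches held few listed CpGs, 3 each for Serpina1c and Serpina1e, so most CpGs behind a promoter level lay further upstream or past the start. Each start was that of the annotated transcript with the longest coding sequence, or the most upstream of ties. The stretches of Serpina1b, Serpina1c and Serpina1d share long runs of near-identical bases, but those of Serpina1a, Serpina1e and Serpina1f do not resemble them. Promoter levels of Serpina1 copies may therefore compare starts that do not correspond.

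At their annotated starts, the tested Serpina1 and Serpina3 members had low or high promoter methylation, with Serpina1a in between. The low and the high members did not overlap in any of the 24 animals. They were named low and high from these same values, so this describes their levels and is not a test. Of the 59 genes, 57 had the 3 CpGs and the 30 counts, summed over CpGs, in every animal that were required. Serpina3i had 0 CpGs in its promoter and Serpina3j had 2. Among Serpina1 copies, Serpina1d averaged 27.8% (20.2 to 39.2% over the 24 animals), Serpina1c 29.7% (21.3 to 39.2%) and Serpina1b 31.6% (25.3 to 38.1%). Serpina1a was intermediate at 58.1% (49 to 67.7%). Serpina1e averaged 88.9% (85.8 to 91.5%) and Serpina1f 92.5% (89.4 to 95.9%), above every animal's value for the other Serpina1 members. Neighbours in this order from Serpina1d to Serpina1b overlapped, and so did Serpina1e and Serpina1f.

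Among the Serpina3 members, Serpina3m averaged 14.3% (7.2 to 23.2%), Serpina3k 21.8% (9.6 to 38.4%) and Serpina3n 23.9% (12.8 to 29.1%). The others were at 72.9% (Serpina3g), 77.8% (Serpina3a), 86.8% (Serpina3f), 91.9% (Serpina3c) and 93.1% (Serpina3b). Serpinc1 was at 41.4% (32.8 to 53.0%). Serpina3m, Serpina3k and Serpina3n, which are neighbours at the end of the gene cluster on chromosome 12, did not overlap with the other Serpina3 members in any animal.

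**Figure D1:**
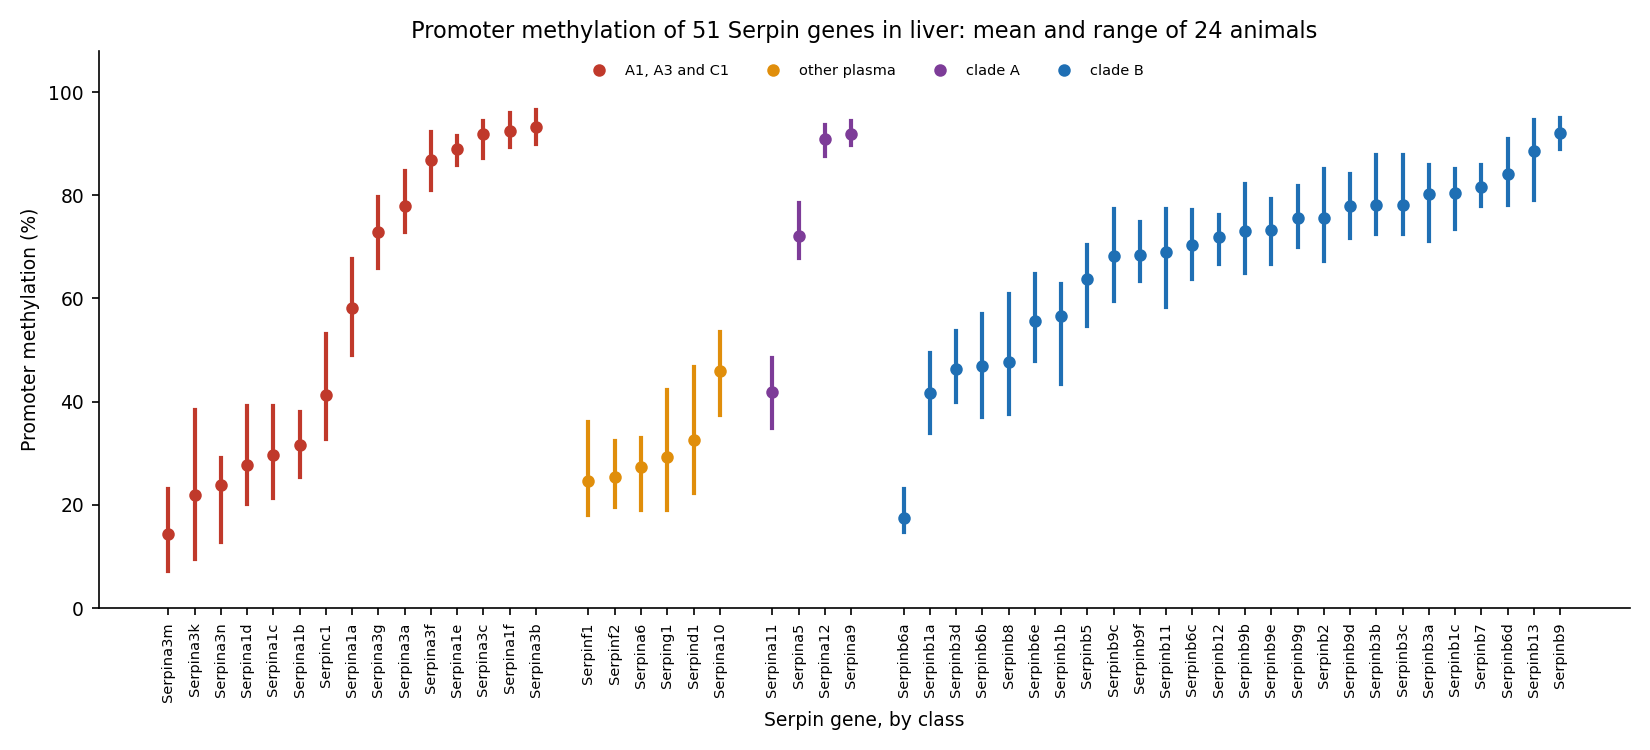
Promoter methylation in percent (vertical axis) of the tested Serpin genes of Serpina1, Serpina3 and Serpinc1, other plasma, clade A and clade B, grouped by class and ordered by level (horizontal axis). Points are means and lines the range over 24 animals. The class of Serpina1, Serpina3 and Serpinc1 runs from 14.3% at Serpina3m to 93.1% at Serpina3b, while the 6 other plasma genes lie between 24.6 and 46.0%.

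The 6 other plasma genes were low together. Serpinf1 (pigment epithelium-derived factor) was at 24.6%, Serpinf2 (alpha-2 antiplasmin) at 25.4%, Serpina6 (corticosteroid-binding globulin) at 27.3%, Serping1 (C1 inhibitor, which restrains complement and kallikrein) at 29.3%, Serpind1 (heparin cofactor II) at 32.5% and Serpina10 (the protein Z-dependent inhibitor of factor Xa) at 46.0%. In the rest of clade A, Serpina11 was at 41.9%, Serpina5 (protein C inhibitor) at 72.1%, Serpina12 (vaspin) at 90.8% and Serpina9 at 91.9%. Clade B had a median of 72.5% over 26 genes, with Serpinb9 (the inhibitor of granzyme B) highest at 92.0% and Serpinb6a lowest at 17.4%. Serpinb3b and Serpinb3c share a start region and had the same level of 78.1%. Outside the class of Serpina1, Serpina3 and Serpinc1, the lowest promoters were Serpini1 (neuroserpin) at 2.0% and Serpine2 (protease nexin-1) at 8.0%, and the highest were Serpinb9, Serpina9 and Serpina12. Serpine3 was at 87.1%, Serpini2 at 66.3% and Serpinh1, a collagen chaperone, at 26.6%.

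By class, the median promoter level was 58.1% for Serpina1, Serpina3 and Serpinc1, 28.3% for other plasma genes and 81.4% for the 4 remaining clade A genes. All 57 Serpin promoters had a median of 68.2% and the 20578 promoters tested across the autosomes one of 15.3%. Serpin promoters are poor in CpGs, with a median of 9 against 52 for all, and the 5659 autosomal promoters with at most 20 CpGs had a median of 76.5%. Against that background the 48 Serpin promoters with at most 20 CpGs were at 69.7%. The 15 tested promoters of Serpina1, Serpina3 and Serpinc1 comprised 1 below 20%, 9 between 20 and 80% and 5 above 80%, so their median fell on Serpina1a, between the low and the high members, and describes neither.

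Within each animal, the median of the 34 CpG-poor Serpin promoters of other classes exceeded that of Serpina1, Serpina3 and Serpinc1 by 13 percentage points (SD 5.32, range 2.41 to 21.2, n = 24). The excess was positive in every animal and smallest on average in B6 males (7.67 ± 3.45 points, SD, n = 3) and C3B6F1 females (8.02 ± 5.77). It was largest in C3 females (17.9 ± 3.07). Because the class median rests on Serpina1a, these values move with that gene, and they describe genes of the same animals with no test. Over the other plasma genes the median was higher in B6, at 32.5% ± 2.20 for males and 32% ± 3.08 for females, than in C3, at 24.6% ± 0.77 for males and 25% ± 1.55 for females (n = 3 each, not tested). In the F1 groups it was 24.5% ± 2.32 (B6C3F1 males), 28.7% ± 1.81 (B6C3F1 females), 29.8% ± 2.50 (C3B6F1 males) and 30.6% ± 1.08 (C3B6F1 females). Clade B stayed between 70.3 and 74.9% in the 8 group means.

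Around the start, the classes differed in the spread between genes. The median for Serpina1, Serpina3 and Serpinc1 was 71.6% in the 500 bases before the start, 56.7% in the 500 bases after it and 25.3% from 500 to 1000 bases after it (16, 15 and 16 genes with a value). The middle 50% of genes was wide and nearly the same in the 3 bins, from 18.9 to 87.2%, from 17.4 to 84.4% and from 16.2 to 81.6%, so the median moved between low and high members and describes neither. The other plasma genes were already at 18.4% before the start and at 15.6% and 18.3% after it. Clade B was at 69.8, 69.8 and 70.5% in the same bins.

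**Figure D2:**
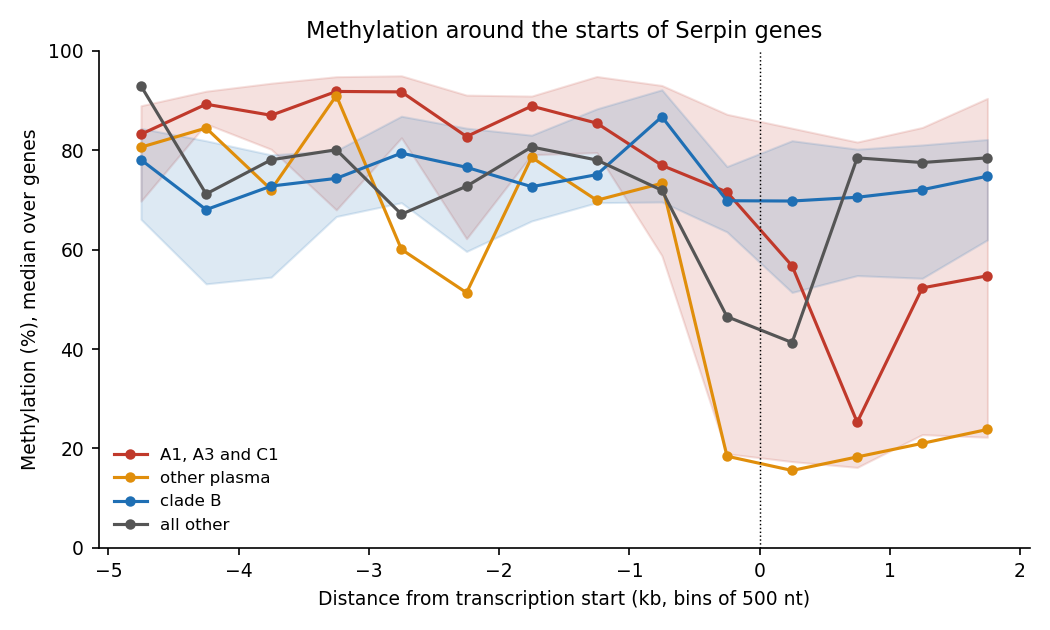
Median methylation in percent over genes (vertical axis) by distance from the transcription start in bins of 500 bases (horizontal axis), with bands for the middle 50% of genes in the classes of Serpina1, Serpina3 and Serpinc1 and of clade B. The other plasma genes are lowest at the start with 15.6%, and the class of Serpina1, Serpina3 and Serpinc1 has a median of 25.3% past the start with a middle 50% from 16.2 to 81.6%.

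Short motifs known from liver promoters were sought on both strands in the 250 bases upstream of each start. GTTAAT, part of the site of HNF1, was found in 8 of 59 Serpin genes (13.6%) and in 5.57% of the 21410 genes, with Serpina1b, Serpina1c, Serpina1d and Serpina3c among the 17 of the first class. Of these, Serpina1b, Serpina1c and Serpina1d had low promoters and Serpina3c a high promoter. The longer GTTAATNAT, which begins with the same letters and so is counted in both, was found only in Serpini2 (0.631% of all genes). TGTTTAC, a core of FOXA sites, was found only in Serpina6 (2.62% of all genes). These matches describe letters in a window and say nothing of binding, and the windows of Serpina1 copies need not correspond.

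The proteases that serpins inhibit were low at most of the promoters measured. F2, F7, F10, F11 and F12, the coagulation factors, lay between 16.1 and 21.1%, and Plg (plasminogen) was at 21.3%, Plat at 8.82%, Plau at 21.2%, Proc at 22.9% and C1ra at 17.3%. Klkb1 (plasma kallikrein) was at 88.6% and C1s at 78.0%. The proteases of neutrophil granules were higher, with Elane at 48.2%, Ctsg at 72.8% and Prtn3 at 73.9%. In the comparisons of strains, sexes, generations and crosses, 0 of the 15 promoters passed both the adjusted p and the difference of 10 points. The share of all promoters was 1.96% between strains and 0.228% or less in the others. By adjusted p alone (limma, Benjamini-Hochberg), 3 passed between B6 and C3 parents, where 12% of all promoters did, and these were Prtn3 (lower in B6, -7.39 points, adjusted p = 0.00954), Plg (higher by 5.91 points, adjusted p = 0.0253) and C1ra (higher by 4.84 points, adjusted p = 0.0396).

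The comparison of B6 with C3 parents asked which Serpin methylation differed with genotype. Among promoters, Serping1 was higher in B6 by 14.6 points, and it was the only Serpin promoter called, at an adjusted p under 0.05 and a difference of at least 10 points. That is 1 of 57, beside 1.96% of the 20578 promoters. Its 34 CpGs were at 30.3, 37.4 and 34.3% in B6 males and 42.2, 35.4 and 40.8% in B6 females. In C3 they were at 19.4, 23.7 and 24.2% in males and 21.1, 25.5 and 19% in females. The strains did not overlap, and the 12 F1 animals lay between 20.7 and 34.2%. On the log2 scale of methylated to unmethylated reads the difference was 1.03 (SE 0.14, adjusted p = 2.39e-06, limma). With a promoter of 250 bases on either side of the Serping1 start the difference was 1.56 points and was not called (adjusted p = 0.754).

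By adjusted p alone 8 of 57 promoters passed, beside 12% of all promoters. Serpinb6b (8.90 points), Serpina3k (7.27), Serpina3n (6.73) and Serpina6 (5.68) were higher in B6, with Serping1, and Serpinb1a (an inhibitor of neutrophil elastase, -7.93 points), Serpine2 (-4.87) and Serpinb9g (-4.25) were lower. Apart from Serping1, their adjusted p ran from 0.000228 at Serpine2 to 0.0479 at Serpinb9g.

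In windows of 500 bases, 3 of the 670 tested in Serpin loci were called between strains, at an adjusted p under 0.05 and a difference of at least 20 points. The background was 0.494% of 1456902 windows, and 0.245% for those higher in B6, the direction of all 3. By adjusted p alone 45 of 670 windows (6.72%) passed, beside 6.63% of all. The share was 14.1% in the 4 clade A genes, 9.85% in Serpina1, Serpina3 and Serpinc1, 7.96% in clade E, 6.12% in other plasma genes, 3.66% in clade B and 0% in clades H and I (22 and 43 windows).

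Serpinc1 (chr1:162908737-162933141) held the called window of its class, in an intron. Its 8 CpGs were at 91.5, 89.4 and 93.2% in B6 males and 91.0, 94.0 and 90.5% in B6 females. C3 males had 62.5, 54.1 and 57.3% and C3 females 52.6, 63.2 and 60.7%, all below the B6 animals. The means were 91.6% ± 1.72 and 58.4% ± 4.41 (SD, n = 6 each), a difference of 33.2 points (log2 2.90, SE 0.21, adjusted p = 5.50e-12, limma). F1 animals were at 74.0 to 90.9%, all above the C3 parents. Counts summed over the CpGs of the window averaged 177 in B6 and 80.7 in C3 parents, with a read counted at each CpG it covers. The nearest single-nucleotide variant of the deposited list lay 688 bases from the centre of the window. The part of depth or of the variant in the difference was not tested. Another Serpinc1 window at chr1:162913501-162914000 was lower in B6 (-19.8 points, log2 -1.72, SE 0.18, adjusted p = 3.04e-08), just short of 20. Serpinc1 held 12 CpGs that passed on their own, 5 of them higher in B6.

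Serpina12, on the reverse strand at chr12:105266979-105282653, held the other 2 called windows. The intronic window at chr12:105273001-105273500 (9 CpGs) was at 75.9% ± 10.1 in B6 and 41.8% ± 8.49 in C3 parents, a difference of 34.1 points (log2 2.21, SE 0.19, adjusted p = 4.77e-10). The window at chr12:105266001-105266500 (7 CpGs), past the 3′ end, was higher in B6 by 24.7 points (log2 1.49, SE 0.22, adjusted p = 9.53e-06), and its strains overlapped at 38.4 to 72.2% against 22.4 to 45.4%. Within the first window lay the only Serpin differentially methylated region (DMR) between strains, chr12:105273344-105273455, with 5 CpGs. A DMR here is a run of at least 5 CpGs with a mean difference of at least 20 points, of which at least 75% passed a Wald test on the reads of each CpG at p under 1e-05 (differentially methylated CpGs, DMCs). The Serpina12 DMR was at 76.5, 67.7 and 72.2% in B6 males, 86.7, 81.6 and 90% in B6 females, 29.1, 39.1 and 37.6% in C3 males and 53.9, 37.0 and 51.9% in C3 females. Both strains were higher in females than in males by mean, and strains did not overlap. B6C3F1 males were at 50.6% ± 3.93 and C3B6F1 males at 58.5% ± 9.46, both between the male parents. B6C3F1 females were at 74.4% ± 2.43 and C3B6F1 females at 84.8% ± 3.51 (n = 3 each). The nearest variant of the deposited list lay 304371 bases away.

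Over all Serpin loci 28 of 9311 CpGs passed between strains (0.301%), beside 0.478% of all autosomal CpGs, and 10 of them were in Serpina12, all higher in B6. CpGs in DMRs made up 0.12% of all autosomal CpGs tested, and of 2391 autosomal DMRs the 1 in Serpina12 fell in a Serpin locus. Below the calls, the windows with the next largest lower values in B6 were in Serpinb1a at chr13:32942501-32943000 (-17.1 points, adjusted p = 0.000283) and Serpine2 at chr1:79855501-79856000 (-15.4 points, adjusted p = 0.000326).

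**Figure D3:**
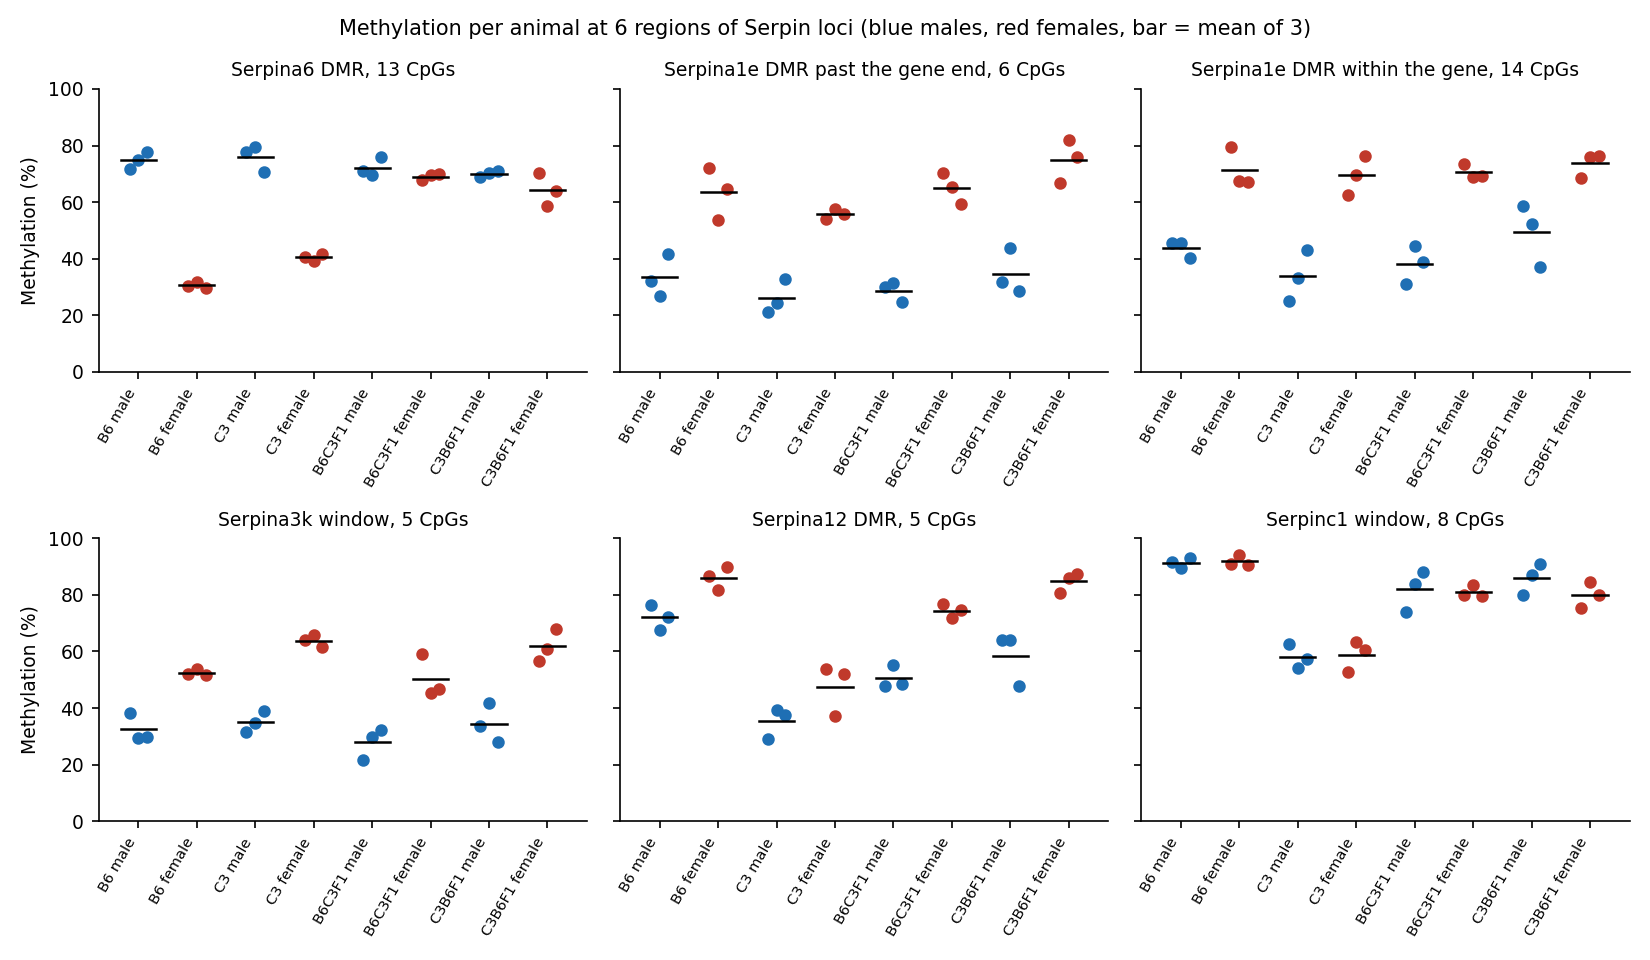
Methylation in percent (vertical axis) of each of 24 animals in 8 groups (horizontal axis) at 6 regions, with males in blue, females in red and bars at group means of 3. At Serpina6 the 6 dams lie between 29.5 and 41.8% and the other 18 animals between 58.5 and 79.5%, and at Serpina1e and Serpina3k males are below females in every strain and cross.

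The comparison of males with females was made in parents (sires against dams) and again in F1 animals, which share no animals. Serpina1e, a Serpina1 copy, and Serpina3k, the rodent kallikrein-binding protein, were less methylated in males in both. Promoters gave 0 calls of 57 in either, beside 0.228% of all promoters for sires and dams and 0.156% for F1 animals, with 7 and 9 of 57 at an unadjusted p under 0.05, beside 8.58 and 6.39% of all. In windows, 3 of 670 were called between sires and dams (beside 0.104% of all windows), 1 higher and 2 lower in sires. Between F1 males and F1 females 4 of 670 were called, all lower in males, beside 0.051% of all windows, of which nearly all were lower in males as well (0.0474%).

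By adjusted p alone, 20 windows passed between sires and dams (2.99% of 670, beside 0.974% of all), 13 of them lower in sires. In F1 animals 13 passed (1.94%, beside 0.343%), all 13 lower in males. The lists shared 8 windows (1.19% of 670, beside 0.236% of all), 40.0% of the list of parents and 61.5% of that of F1 animals, with the same direction in all 8. Over all autosomal windows the shared ones were 24.2% of the list of parents and 68.7% of that of F1 animals, and 99.9% of them had the same direction. These were 4 windows in Serpina1e, 3 in Serpina12 and 1 in Serpina3k. By class the share passing between sires and dams was 11.3% in clade A, 4.55% in Serpina1, Serpina3 and Serpinc1, 4.08% in other plasma genes and 0.524% in clade B, and in F1 animals 8.45, 3.79, 1.02 and 0%. The 22 Serpin genes of chromosome 12, with 202 of the 670 windows, held 17 of the 20 windows that passed in parents and 12 of the 13 that passed in F1 animals.

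**Figure D4:**
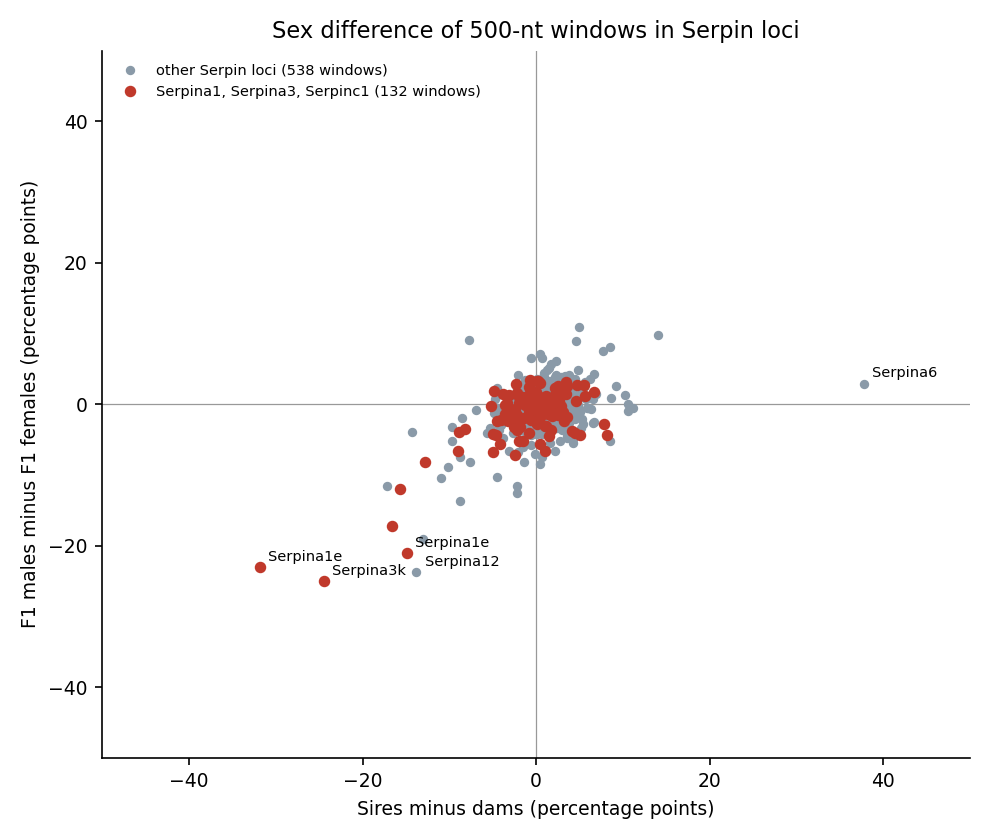
Difference of males minus females in percentage points for 670 windows of 500 bases in Serpin loci, with sires minus dams on the horizontal and F1 males minus F1 females on the vertical axis (132 windows of Serpina1, Serpina3 and Serpinc1 in red, those of other Serpin loci in grey). The 8 windows that passed in both generations, in Serpina1e, Serpina12 and Serpina3k, are negative on both axes, and the Serpina6 window lies at 37.8 points in parents and 2.93 in F1 animals.

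Serpina1e (reverse strand, chr12:105185141-105197185) differed along much of its length, while its promoter was not called. Between sires and dams 30 of its CpGs passed the Wald test, all lower in sires, and in F1 animals 21, again all lower in males. The promoter differed by -0.34 points between sires and dams (adjusted p = 0.978) and by -0.76 points in F1 animals (adjusted p = 0.949). The window over its last exon, chr12:105185001-105185500 with 7 CpGs, was at 42.4, 55.0 and 61.4% in B6 males and 84.6, 81.6 and 81.4% in B6 females. In C3 it was at 37.4, 46.6 and 54.3% in males and 74.4, 82.3 and 84.1% in females. No male parent overlapped with a dam, and the difference was -31.9 points (log2 -2.13, SE 0.19, adjusted p = 3.71e-09). In F1 animals it was -23.1 points (log2 -1.60, SE 0.19, adjusted p = 2.88e-06). An intronic window at chr12:105192001-105192500 (5 CpGs) was lower in F1 males (-21.0 points, adjusted p = 6.30e-05) and in sires (-14.9 points, adjusted p = 0.00256, under the 20 points required). Without B6C3F1 female 2 or C3B6F1 male 2 its F1 difference was also under 20 points.

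The Serpina1e DMR found in F1 animals, chr12:105184096-105184638 with 6 CpGs, lies just past the 3′ end, with 2 of its CpGs within the 1 kb covered by the locus. B6C3F1 males were at 30.2, 31.5 and 24.6% and females at 70.5, 65.4 and 59.3%. C3B6F1 males were at 31.9, 43.7 and 28.7% and females at 66.9, 82.1 and 76.1%. In the parents, which took no part in choosing it, sires were at 29.9% ± 7.30 and dams at 59.7% ± 7.29 (n = 6 each) without overlap. The two-sided exact permutation p was 0.00216, the smallest that 6 against 6 allows, and 0.0242 after Benjamini-Hochberg adjustment over 56 tests of single regions. These 56 include Serpina6 regions in comparisons that share the dams with the comparison that chose them. Their exact permutation p was 0.00216 as well, and including them lowers the adjusted value. The DMR found in parents, chr12:105187725-105190343 with 14 CpGs over exons and introns, was at 38.8% ± 8.19 in sires and 70.5% ± 6.30 in dams. In the F1 animals, not used to choose it, it was at 43.8% ± 10.2 in males and 72.1% ± 3.62 in females (exact permutation p = 0.00216, adjusted 0.0242), again without overlap. The call of the first depended on B6C3F1 male 3, without which 0 Serpin DMRs were found between F1 males and females, and that of the second on C3 male 2 and B6 female 1, without either of which the Serpina6 DMR was the only 1 left between sires and dams. Within each strain or cross, with 3 males and 3 females, the sexes did not overlap at either region, with males minus females at -40.2 to -24.4 points, and an exact permutation p cannot go below 0.1 there. The crosses had chosen the first region and the parental strains the second, so lack of overlap in those groups is no separate support. Of all DNA stretches of 50 bases in the Serpina1e locus, 26.0% occur again in the same or another Serpin locus, so reads may be shared with or lost to near-identical copies. Within 1 Mb of each region, the share that recurred was 15% for the first DMR, 41.8% for the second and 10.2% for the window over the last exon. It was 37.3% for the intronic window, 1.77% for the called Serpinc1 window and 0% for the regions of Serpina6, Serpina12 and Serpina3k. This share leaves out copies further than 1 Mb away.

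**Figure D5:**
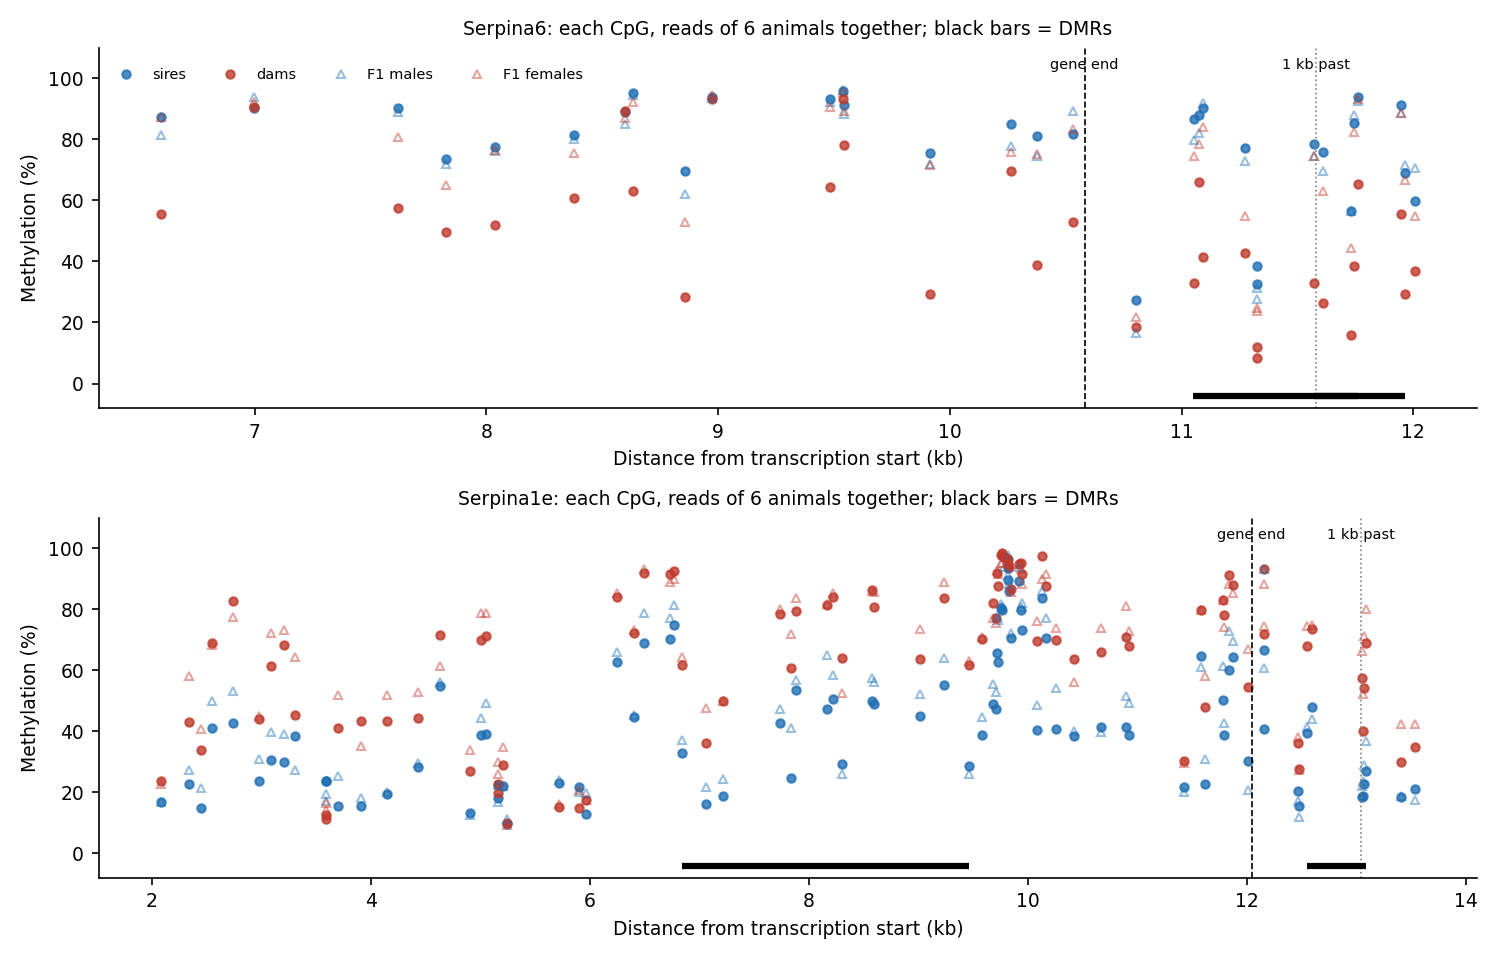
Methylation in percent (vertical axis) of single CpGs in Serpina6 (top) and Serpina1e (bottom) by distance from the transcription start in kb (horizontal axis), with the reads of 6 animals pooled. Filled circles are sires (blue) and dams (red), triangles F1 males and F1 females, dashed lines the gene ends, dotted lines 1 kb past them and black bars the DMRs. In the Serpina6 DMR the dams lie below the other groups at all 13 CpGs, and in Serpina1e both groups of males lie below both groups of females at most CpGs shown.

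Serpina3k (chr12:105576696-105583951) had only 1 window that could be tested, so its difference cannot be placed within the locus. That window, chr12:105582001-105582500 with 5 CpGs, overlaps an exon. Outside it, the CpG at position 105583376 was also lower in sires than in dams (Wald z = -4.64). B6 males had 38.3, 29.3 and 29.8%, B6 females 52.0, 53.8 and 51.5%, C3 males 31.4, 34.6 and 38.9% and C3 females 64.2, 65.8 and 61.6%. The difference of sires and dams was -24.4 points (log2 -1.44, SE 0.18, adjusted p = 2.52e-06). B6C3F1 males had 21.6, 29.7 and 32.2% and females 59.3, 45.3 and 46.6%, while C3B6F1 males had 33.5, 41.7 and 28.1% and females 56.5, 60.8 and 68.1%. That is -25.0 points in F1 animals (log2 -1.51, SE 0.18, adjusted p = 2.80e-06), without overlap in either generation. Serpina3k also had a low promoter, which differed by 2.21 points between sires and dams (adjusted p = 0.963) and by -0.19 points in F1 animals (adjusted p = 0.998).

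At Serpina12, where the strains differed, sex differences were also measured. Its intronic window was lower in F1 males than in F1 females (-23.7 points, log2 -1.61, SE 0.19, adjusted p = 5.26e-06) and in sires than in dams (-13.8 points, adjusted p = 0.00446). At the DMR chosen between strains, F1 males were at 54.6% ± 7.82 and F1 females at 79.6% ± 6.28 without overlap (exact permutation p = 0.00216, adjusted 0.0242). At the same DMR sires were at 53.7% ± 20.7 and dams at 66.8% ± 22.0 (SD, n = 6 each), which overlapped (exact permutation p = 0.312, adjusted 0.61). That p pools strains that differed at this DMR, so the strain difference is part of its spread. Within strains, B6 males were at 72.1% ± 4.39 and B6 females at 86.1% ± 4.24 without overlap, and C3 males at 35.3% ± 5.43 and C3 females at 47.6% ± 9.20 with overlap (n = 3 each). The exact permutation p was 0.1, the smallest this size allows, in B6 and 0.3 in C3. A limma test of whether the sex difference depended on the parental strain gave 2.58 points in this window (adjusted p = 0.971). Of the 670 windows 42 were at an unadjusted p under 0.05 (6.27%, beside 5.42% of all windows), and 0 were called. The share of all windows called in that test is not given here, so this 0 is no result about Serpin loci.

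Other windows near the top in parents were higher in sires in Serpina10 at chr12:104864001-104864500 (14.1 points, adjusted p = 0.000827) and Serpina11 at chr12:105221501-105222000 (11.1 points, adjusted p = 0.00522), and lower in sires in Serpine2 at chr1:79819501-79820000 (-17.1 points, adjusted p = 0.000315). In F1 animals the largest values in the direction of higher in males were 10.9 points in Serpinb8, 9.86 in the same Serpina10 window and 9.13 in Serpinb6a, none of them past the test (adjusted p = 0.101, 0.085 and 0.419). CpG by CpG, 76 of 9366 passed between sires and dams (0.811%, beside 0.113% of all), 50 of them lower in sires, and 33 of 9378 between F1 males and females (0.352%, beside 0.061%), all lower in males, which holds for most such CpGs of the autosomes (0.0566%). Serpina1e held 30 of the 76 and 21 of the 33. Of 547 autosomal DMRs between sires and dams 2 fell in Serpin loci, and of 263 between F1 males and females 1 did. CpGs in DMRs made up 0.022% of all autosomal CpGs tested in the first comparison and 0.011% in the second.

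At Serpina6, which encodes the plasma carrier of glucocorticoids, the dams alone were low. The DMR between sires and dams, chr12:104883458-104884371 with 13 CpGs, lies 11051 to 11964 bases from the start of the gene, past its 3′ end, and 7 of the 13 CpGs fall within the 1 kb past the gene that the locus covers. B6 males were at 71.9, 74.8 and 77.9% and C3 males at 77.8, 79.5 and 70.7%. B6 females were at 30.5, 31.6 and 29.5% and C3 females at 40.6, 39.3 and 41.8%. B6C3F1 males were at 70.8, 69.6 and 75.9% and females at 67.8, 69.5 and 69.9%. C3B6F1 males were at 68.9, 70.3 and 71% and females at 70.2, 58.5 and 63.9%. All 6 dams lay below all 18 other animals, and the means were 75.4% ± 3.56 in sires, 35.6% ± 5.58 in dams, 71.1% ± 2.48 in F1 males and 66.6% ± 4.62 in F1 females.

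The window chr12:104884001-104884500 (6 CpGs) overlaps this DMR and was tested with all windows. It was higher in sires than in dams by 37.8 points (log2 2.30, SE 0.17, adjusted p = 1.25e-10) and lower in dams than in F1 females (-26.2 points, log2 -1.55, SE 0.17, adjusted p = 2.82e-06), comparisons that share the dams. F1 males and F1 females differed by 2.93 points (adjusted p = 0.918) and sires and F1 males by 8.69 points (adjusted p = 0.557). The test of the difference of the sex effects, females minus males in parents less the same in F1 animals, gave -34.9 points (log2 -2.13, SE 0.25, adjusted p = 2.08e-05). It was the only 1 of 670 Serpin windows called in this test, beside 0.0185% of all windows. Between the strains the window differed by -6.02 points (adjusted p = 0.207). The difference of the sex effect between the parental strains was -10.1 points and did not pass (adjusted p = 0.938).

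Along Serpina6, 24 CpGs passed between sires and dams, 23 of them higher in sires, and the map of single CpGs shows dams below the other groups at most CpGs from inside the gene to past its end. The promoter of Serpina6, in contrast, differed by 0.39 points between sires and dams (adjusted p = 0.986) and by -0.15 points between dams and F1 females (adjusted p = 0.993). The remaining CpG, at position 104896410 and lower in sires (Wald z = -4.63), lies within that promoter. It was also lower in F1 males than in F1 females (z = -4.56), unlike the pattern past the gene end.

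Dams and F1 females differed at few other Serpin sites. Of 57 promoters 0 were called, beside 0.0437% of all, with 8 at an unadjusted p under 0.05 (beside 6.32% of all). Of 670 windows the 1 in Serpina6 was called, beside 0.0198% of all, and 5 passed by adjusted p alone (0.746%, beside 0.181% of all), 2 in Serpina6, 2 in Serpina11 and 1 in Serpina12, all lower in dams. The larger of those in Serpina11, at chr12:105223501-105224000, was lower in dams (-12.4 points, log2 -0.72, SE 0.16, adjusted p = 0.0413). The Serpina12 intronic window was at -12.1 points and did not pass (adjusted p = 0.159). The largest values in the other direction, 8.16 and 7.15 points in Serpina1c and 7.03 in Serpinb6a, did not pass either (adjusted p = 0.482, 0.609 and 0.599). By CpG, 18 of 9374 passed (0.192%, beside 0.0211% of all), 16 in Serpina6 and 2 in Serpina11. The 2 of Serpina11, at positions 105221581 and 105221619 of chromosome 12, were also lower in dams than in sires and were not called between F1 males and females. All 18 were lower in dams, the direction of nearly all such CpGs of the autosomes (0.0205%). The 1 Serpin DMR of this comparison, chr12:104883660-104883851 with 5 CpGs of which 1 lies within the Serpina6 locus as defined, lies inside the Serpina6 DMR above, at 35.0% ± 5.95 in dams and 71.1% ± 5.17 in F1 females. Without B6 female 1 the 5-CpG run was not called. It was 1 of 97 autosomal DMRs in this comparison, and CpGs in DMRs were 0.00342% of all.

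Sires and F1 males, and the reciprocal crosses B6C3F1 and C3B6F1, gave 0 calls in Serpin loci in promoters, windows, single CpGs and DMRs. The background of called promoters was 0.00972% for sires and F1 males and 0.0146% for the crosses, and of called windows 0.00227% and 0.000686%. Single CpGs passed at 0.000188% and 0.0013% of all, and CpGs in DMRs were 0% and 0.000635%, so the comparisons had few calls anywhere. At an unadjusted p under 0.05, limma passed 5 and 6 of 57 promoters (beside 5.63 and 9.48% of all) and 46 and 62 of 670 windows (beside 6.26 and 6.69% of all). The largest values of sires over F1 males were 8.69 points in the Serpina6 window, 7.35 in Serpind1 and 7.26 in Serpina1d, and the largest in the other direction -9.86 points in Serpinb6a, -9.31 in the Serpinc1 window and -8.44 over the last exon of Serpina1e, with adjusted p of 0.557 to 0.899. Between the crosses the largest were 7.23 points in Serpina11, 6.83 in Serpina1b and 6.23 in Serpinb6b higher in B6C3F1, and -10 points in Serpinf2, -9.15 in Serpina11 and -9.00 in the Serpina3k window, lower in B6C3F1 (adjusted p from 0.433 to 0.649).

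The sequence around the members bears on how these values can be read. The 22 Serpin genes of chromosome 12 fall within 808 kb, in which 1 single-nucleotide variant of the deposited list was found where 919 would be listed at the autosomal mean of 1.14 per kb. That variant lies at Serpina3k, and the loci of the other 21 genes held 0. Coverage relative to each animal's mean differed between the strains at none of the 59 loci by the 1.3-fold required with an adjusted p under 0.05, beside 6.3% of all loci. By adjusted p alone 29 of the 59 loci passed (49.2%), beside 43.2% of all loci, the largest fold being 1.21 at Serpinc1 (adjusted p = 1.0e-05) and the smallest 0.853 at Serpina3k (adjusted p = 0.000713), B6 over C3. The share of stretches of 50 bases that recur in the same or another Serpin locus was 26.0 to 42.2% in Serpina1a to Serpina1e, 40.1% in Serpinb9f, 34.6% in Serpinb9g and 19.9% in Serpinb9e. Levels of these copies are uncertain where the alignment could assign reads to a copy other than their own.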

How the data were processed

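Genomic DNA from the livers of 24 mice was examined by whole-genome bisulfite sequencing. The authors deposited, per autosomal CpG and animal, counts of methylated and of unmethylated reads on mm9, which are the unit analysed here, and a list of single-nucleotide variants whose base letters carry no measured value. The submitters' processing notes name Bismark 0.7.8, Bowtie 0.12.8, CASAVA 1.8.2 and Picard 1.110. Libraries of FOXA1 chromatin immunoprecipitation were not analysed here. All columns of counts had a sample, and 0 were left unused. The 18887127 CpGs listed all lay on CG dinucleotides of the mm9 reference, and genes were taken from its GENCODE annotation.

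Animals were grouped by the strain and sex of their labels. Counts were summed over the CpGs of promoters (1000 bases before to 500 after the start, at least 3 CpGs) and of windows of 500 bases (at least 5 CpGs). Each had at least 30 counts in every animal, where a read over several CpGs counts at each. The value log2((methylated + 1)/(unmethylated + 1)) was fitted in limma 3.58.1 (R 4.3.3) with trend and robust settings over all 24 animals and 8 group means. P-values were adjusted by Benjamini-Hochberg over all promoters or windows of the autosomes. A window was called at an adjusted p under 0.05 and a difference of 20 points, a promoter at 10 points. Differences are the first group minus the second, in percentage points of the mean over animals. Single CpGs with at least 5 reads in 50% of the animals of each group were compared by Wald tests on beta-binomial counts, written after the model of DSS, without the package itself, so that calls can differ from those of the package (Python 3.11.15, numpy 2.4.6, scipy 1.17.1, numba 0.67.0). Each side of a comparison had 1 mean, unlike in limma. Strains, crosses or sexes pooled on a side therefore add their differences to its spread. Counts of DMCs and DMRs in parents and in F1 animals are not alike in this. DMRs were runs of DMCs at p under 1e-05, with gaps up to 1000 bases, merged within 100 bases, over at least 50 bases and 5 CpGs, with a mean depth up to 500 and a depth ratio up to 5. Locus depth was compared as reads per CpG over the animal's mean. Single regions were compared with two-sided exact permutation tests only in comparisons that had not chosen them. Some of these comparisons shared animals with the one that had chosen the region, and the adjustment covers those too. Scripts were tested on simulated data with known differences.

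The genes named are all Serpina1, Serpina3 and Serpinc1 members, other Serpin genes with a called promoter, window or DMR, up to 3 windows with the largest difference per comparison and direction, and the 3 highest and 3 lowest other promoters. Outside this rule, Serpinf1 was named as an other plasma gene, and Serpina5, Serpinb3b, Serpinb3c, Serpinb9e, Serpinb9f, Serpinb9g, Serpine3, Serpinh1 and Serpini2 after their values were seen. The values of 1 member and some sequences are not reported here. The members and lists were chosen with earlier results of these data known. Alternatives were other read minimums, pseudocounts, scales, thresholds, promoter limits, a replicate block, CpGs near variants left out, smoothing, and each animal left out in turn. Those for the tests of generation by sex and strain by sex were added after seeing the data. With 19.4 to 32.8 reads per CpG, a region of 5 to 14 CpGs rested on 61 to 515 counts per animal. These counts are summed over CpGs, and a read that covers several CpGs counts at each, so reads were fewer than counts. The p-values reflect the spread between animals.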

Additional observations from a re-analysis of the deposited data

Results flagged for a closer look

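The effect of sex on Serpina6 differed between the generations. At chr12:104884001-104884500, past the 3′ end of the gene, females minus males in the parents less females minus males in the F1 animals came to -34.9 points (log2 -2.13, SE 0.25, adjusted p = 2.08e-05, limma over all windows). The 6 dams were at 23.8 to 43.0%, below every sire (66.1 to 77.7%), F1 male (58.8 to 71.4%) and F1 female (51.2 to 68.3%). Dams differed from F1 females in generation, in being inbred and not hybrid, and in having borne litters, which cannot be told apart.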

How the results depend on the processing

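Of 627 alternatives tried for 23 counts of calls, 593 stayed within 1.5 times the count reported. Many of these counts were 0, and a 0 that stayed 0 is among the 593, so that share overstates how stable the other counts were. Of 395 alternatives for 13 named regions 391 kept both call and direction, 4 lost the call and 0 turned. Alternatives under which a window could no longer be tested are not among the 395. A minimum of 10 points cannot lose a window called at 20 points. This share therefore overstates how stable the calls were as well. With a minimum difference of 10 points, windows called were 23 between strains, 17 between sires and dams, 11 between F1 males and females and 4 between dams and F1 females (3.43, 2.54, 1.64 and 0.597% of 670, beside 2.39, 0.573, 0.255 and 0.136% of all windows). With at least 100 summed counts in every animal, the windows called were 0 for sires and dams and 2 for F1 males and females. They were 0 for dams and F1 females and 0 for generation by sex, since this filter removes windows with fewer counts from the test. Promoters called between strains were 2 with CpGs of at least 5 reads in every animal (Serpine2 joins), 0 at a minimum of 20 points, and 2 with 250 bases on either side of the start, where Serpinb1a and Serpinb6b pass and Serping1 does not (1.56 points, adjusted p = 0.754), and the cause was not tested. A DMC threshold of 1e-04 gave 6 DMRs for sires and dams, 2 for F1 males and females and 2 for dams and F1 females. Smoothing over 250 bases gave 4 for sires and dams and 0 for F1 males and females. The alternatives for DMRs, also those with 1 animal left out, were run only at Serpin loci. No share over all autosomal CpGs therefore stands beside their counts, and they cannot be set against a background. Leaving out 1 animal at a time gave between strains 3 to 5 windows (5 without B6 male 1, B6 female 1, C3 male 2 or C3 female 2), 1 to 2 promoters (2 without B6 male 1 or C3 female 2) and 1 DMR. It gave 1 to 4 DMRs for sires and dams (4 without C3 female 2), 0 to 2 for F1 males and females (2 without C3B6F1 male 1, C3B6F1 male 2 or B6C3F1 female 2) and 0 to 2 for dams and F1 females (2 without C3 female 2, B6C3F1 female 1, B6C3F1 female 2 or C3B6F1 female 3). Windows stayed at 3 for sires and dams, 3 to 6 for F1 animals and 1 for dams and F1 females. The intronic Serpina1e window at 105192001 fell under 20 points without B6C3F1 female 2 or C3B6F1 male 2. With the replicate number as a block, the counts were the same in every comparison, with 3 Serpin windows called between strains. Animals with the same number had a mean correlation of deviations of 0.02 over 84 pairs, 6 of them over 0.1 and the highest 0.278. Those with different numbers had one of -0.01 over 168 pairs, 3 of them over 0.1 and the highest 0.133. Pairs with the same number include animals that cannot be of 1 family, so these means cannot exclude pairing. The labels do not tie numbers to families, so the numbers were not taken to pair animals.

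The tests covered 57 promoters and 670 windows with enough CpGs and reads, and a difference under 10 or 20 points was not called whatever its error. Whole liver mixes cell types. The classes follow symbols, not expression. Intervals for single animals were not given, since the spread over animals is printed, and reads are not independent molecules.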
